A study of Rattus norvegicus with 24 samples.

Results

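Ventricles of rats made diabetic with streptozotocin were compared with ventricles of buffer-injected rats 3 days after injection, the earliest stage of the study and the one its description assigns to a response without cardiac symptoms. The comparison held all samples labelled day 3, which were 8 of the 24 in the series, 4 diabetic and 4 control, with 1 animal per array. All animals were male Wistar rats from Harlan, weighed 150 g when injected, were housed separately and had free access to standard feed and water. The diabetic animals had received streptozotocin at 65 mg/kg and the controls citrate buffer. No age was given in the labels. RNA of the frozen ventricle was hybridised to the first of the Affymetrix rat genome arrays of the U34 generation, which reads each transcript with 1 or more probe sets, and a signal is a MAS5 intensity scaled to a common mean. The other 16 arrays, from days 28 and 42, entered the model and served for the comparison between days.

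Streptozotocin destroys the insulin-secreting beta cells of the pancreas, so that the model is one of insulin deficiency and not of insulin resistance. A heart without insulin takes up less glucose and burns more fatty acid. Fatty acids act in cardiac muscle as ligands of the nuclear receptor PPAR-alpha, which switches on genes of fatty acid transport, oxidation and acyl-CoA hydrolysis. The kinase Pdk4 blocks pyruvate dehydrogenase and with it the entry of glucose carbon into the mitochondrial cycle.

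The diabetic animals were hyperglycaemic at day 3. Blood glucose was 524, 500, 618 and 518 mg/dL in diabetic rats 1 to 4 and 137, 122, 140 and 108 mg/dL in control rats 1 to 4, so that the groups did not overlap. Ventricle weight was 0.41, 0.37, 0.41 and 0.43 g against 0.5, 0.5, 0.5 and 0.53 g, also without overlap. Both differences had an exact two-sided permutation p = 0.029, the smallest that 70 arrangements of 4 against 4 can give, and an adjusted p of 0.057 over the 4 measures. Body weight was 151 ± 6.98 g (SD, n = 4) against 173 ± 11.6 g (exact permutation p = 0.086), and ventricle weight per body weight was 2.69 ± 0.263 against 2.94 ± 0.186 mg/g (exact permutation p = 0.23).

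Diabetic array 1 stood apart from the other arrays of day 3. Its median signal was 443 against 321 to 385 on the other 7, 1.92% of its probe sets lay at or under the floor used for low signals against 6.85% or more, and its median correlation with the other arrays of its group was 0.943 against 0.969 to 0.973 for the others. Of the 49 calls described below 18 did not pass without it, and their values without it stand beside them. Some other omissions ended more calls, among them 32 without diabetic array 2, 31 without diabetic array 3 and 28 without control array 2. The 3' to 5' signal ratio of actin, a measure of RNA integrity, reached 1.27 in controls and lay between 1.23 and 1.55 in diabetic arrays, and its part in the results was not tested. The cardiac muscle genes Actc1, Myh6, Tnni3 and Tnnt2 read 53964 or more on each of the 8 arrays. The atrial light chain gene Myl7 ranged from 354 to 12985 in controls and from 360 to 24594 in diabetic samples, so the samples held unequal amounts of atrial transcript. In bulk tissue, fewer cells of a type and less RNA per cell cannot be told apart.

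At day 3 few transcripts passed the test. The named genes that rose included acyl-CoA thioesterases, enzymes of beta-oxidation, Pdk4 and Penk, and those that fell included Slc2a4 and Cdk1. Of 5244 probe sets tested, 49 passed an adjusted p of 0.05 (0.934%), of which 33 were higher and 16 lower in the diabetic ventricles. Counted as genes with 1 representative probe set each, 21 of 3140 rose (0.669%) and 11 fell (0.35%). At an unadjusted p under 0.05 the number was 535. The median log2 change of all genes was -0.04, with 1380 genes above 0 and 1760 below. Changes are given as log2 differences of diabetic minus control with their standard error, from a limma fit over all 24 arrays with Benjamini-Hochberg adjustment. With each of the 8 arrays left out in turn, 15 of the 49 calls were never lost, and 14 of these also passed when the scan day or the fluidics station was added to the model as a block. In those fits 20 and 23 probe sets passed in all. These 14 probe sets stood for Acot1, Decr1, Ech1, Penk, Pik3c2g, Sult1a1, Ephx1, Myh7, Pdp2 and Cntnap1 and for 2 unnamed probe sets, with Decr1 and Sult1a1 represented by 2 probe sets each. Each of the other calls was lost in at least 1 omission or with at least 1 of these blocks. At day 3 fluidics station 2 held 1 control and all 4 diabetic arrays, so station and diabetes nearly coincided. The station block could therefore not fully tell them apart. Chip lots were also uneven, with 3 control arrays and 1 diabetic array on lot 4 and the reverse on lot 5.

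**Figure D1:**
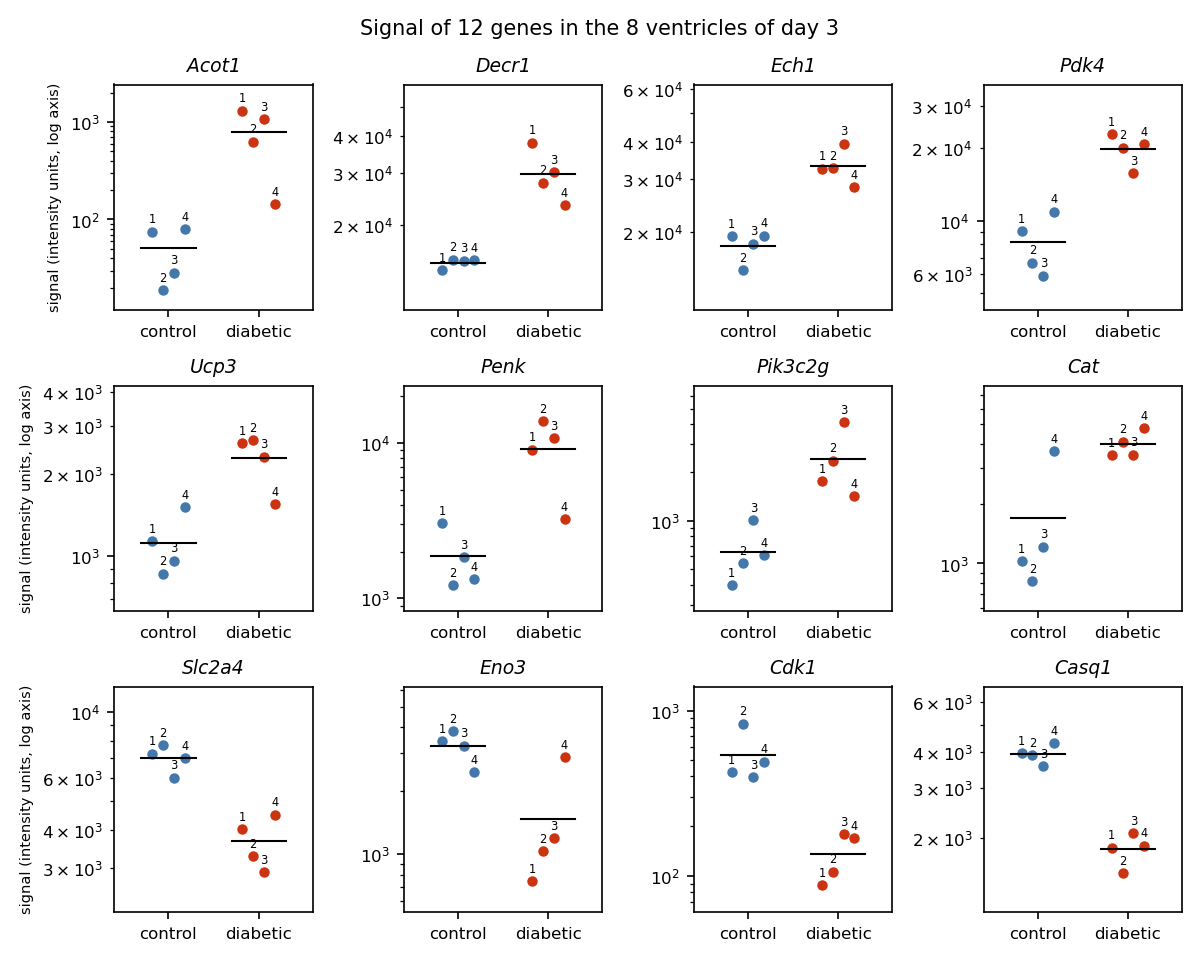
Signal per array (intensity units, log axis) of 12 genes called at day 3, with blue points for the 4 control and red points for the 4 diabetic ventricles, replicate numbers beside the points, and a line at the mean of each group. Cat and Eno3 overlap between the groups and the other 10 genes do not, and for Acot1 and Penk diabetic array 4 lies nearest to the controls.

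The diabetic arrays differed among themselves, and with 1 animal per array, differences between animals and between arrays cannot be told apart. Diabetic array 4 was the lowest of the 4 diabetic arrays for 22 of the 33 probe sets called higher and the highest for 10 of the 16 called lower, so that it lay nearest to the controls for most calls. Over all 5244 probe sets it was the lowest diabetic array for 1199 and the highest for 994. Without it 62 probe sets passed, while 17 passed without diabetic array 2, 18 without diabetic array 3, 21 without control array 2, 32 without control array 4 and 44 without diabetic array 1.

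Acyl-CoA thioesterases and an uncoupling protein rose. Acot1, a cytosolic enzyme that splits acyl-CoA into fatty acid and coenzyme A, had signals of 75.1, 18.8, 28.5 and 80.2 in control arrays 1 to 4 and of 1304, 625, 1073 and 143 in diabetic arrays 1 to 4. Its probe set is marked by the maker as shared between similar sequences. The groups did not overlap, but 2 controls lay below the floor of 30.5 and diabetic array 4 was far below the other diabetic arrays. The log2 change was 3.61 ± 0.58 (limma, adjusted p = 0.00166), and 3.23 without diabetic array 1 (adjusted p = 0.00876). Its size depends on how low signals are treated, since the mean of the controls, 50.6, lay below the 25th percentile of all signals, 93.6. With that percentile as the floor the change was 2.67, and with a pseudocount in place of the floor it was 2.36. Acot2, the mitochondrial thioesterase, read 7613, 6903, 5838 and 6488 in controls and 17511, 12050, 12808 and 8344 in diabetic arrays, a rise of 0.88 ± 0.21 (limma, adjusted p = 0.0443) that was 0.70 without diabetic array 1 (adjusted p = 0.111). Ucp3, the muscle uncoupling protein of the mitochondrial inner membrane, rose by 1.03 ± 0.24 (limma, adjusted p = 0.0386), from 864 to 1515 in controls and from 1557 to 2666 in diabetic arrays. Control array 4 and diabetic array 4 were nearly equal, and the call was lost without diabetic array 1 (0.96, adjusted p = 0.0839). Of 5 measured genes of this list 3 rose. The list median of 0.88 was the value of Acot2, itself a called gene, and so adds nothing to these calls. Acot7 (0.45) and Ucp2 (0.17) did not pass.

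The 3 enzymes of mitochondrial beta-oxidation that rose are auxiliary enzymes for unsaturated fatty acids. Decr1, the reductase that acts on dienoyl-CoA, read 13989, 15229, 15101 and 15164 in controls and 37882, 27781, 30191 and 23250 in diabetic arrays. The controls lay within a narrow band and each diabetic array was well above it, with a change of 0.98 ± 0.17 (limma, adjusted p = 0.00247), while the other Decr1 probe set gave 1.20 ± 0.19. Ech1, the isomerase of double bonds at odd positions, read 19430, 14985, 18303 and 19475 against 32565, 32672, 39437 and 28269, a rise of 0.88 ± 0.14 (limma, adjusted p = 0.00172) without overlap. Eci1, another enoyl-CoA isomerase, rose by 0.75 ± 0.14 and by 0.65 ± 0.14 on 2 probe sets, while another one gave -0.07. Without diabetic array 1 the second was 0.60 and did not pass (limma, adjusted p = 0.0637). The first lost its call without diabetic array 2 or 3. It also did not pass with scan day or fluidics station as a block (limma, adjusted p = 0.0794 and 0.0596). Of 13 measured genes of the list 3 rose and none fell, with a median of 0.19 and 9 above 0. The median was 0.11 without diabetic array 1 and 0.12 without control array 3. The trifunctional protein genes Hadha (0.36) and Hadhb (0.37) and the long-chain dehydrogenase gene Acadvl (0.20) did not pass, although the 4 diabetic Hadhb values, 30121 to 34569, all exceeded the control range of 24125 to 25552.

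The carnitine shuttle carries acyl groups into the mitochondrion. Its liver-type entry enzyme Cpt1a rose by 0.59 ± 0.14 (limma, adjusted p = 0.0414), from 2807, 2340, 2563 and 3655 in controls to 3678, 4829, 4719 and 3795 in diabetic arrays. Control array 4 and diabetic array 1 were nearly equal, and the call was lost in 5 of the 8 omissions. The muscle-type enzyme gene Cpt1b gave 0.20 and the translocase gene Slc25a20 gave 0.24, neither past the threshold. Among 13 genes of fatty acid uptake and activation none was called, with a median of 0.05 that ran from -0.02 to 0.05 over the omissions of 1 array. Within that list the scavenger receptor gene Cd36, which carries fatty acids across the muscle membrane, read 10390, 7610, 7577 and 7665 in controls and 15830, 13668, 9252 and 12288 in diabetic arrays (0.61, adjusted p = 0.245). Control array 1 lay above diabetic array 3, so that the groups overlapped.

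**Figure D2:**
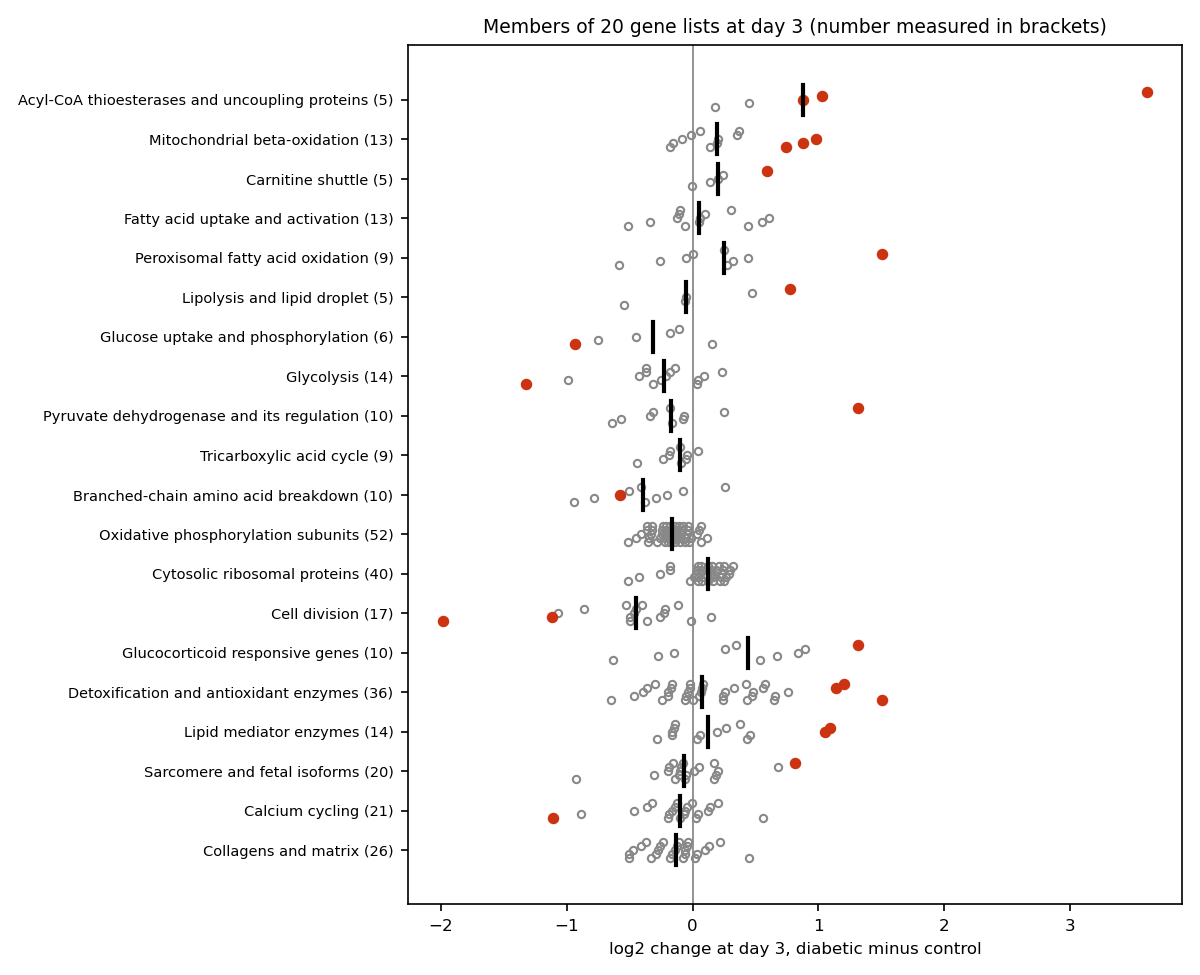
Log2 change at day 3 of each measured member of 20 gene lists (points), with members past an adjusted p of 0.05 in red and a black bar at the list median. The thioesterase and uncoupling list of 5 genes has its median at 0.88, the value of the called Acot2, and the cell division list at -0.45. Oxidative phosphorylation (-0.17) and ribosomal proteins (0.12) form dense clouds with no red point.

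Peroxisomes shorten very long fatty acids and release hydrogen peroxide, which catalase breaks down. Cat, the catalase gene, read 1025, 816, 1217 and 3676 in controls and 3487, 4095, 3524 and 4778 in diabetic arrays. Control array 4 lay above diabetic arrays 1 and 3, so that the groups overlapped. The change was 1.5 ± 0.33 (limma, adjusted p = 0.0244). Over the omissions of 1 array it ran from 1.25 to 1.97, the latter without control array 4. The call was lost in 6 omissions, those of control arrays 1, 2 and 3 and diabetic arrays 2, 3 and 4. It was also lost with scan day or fluidics station as a block (limma, adjusted p = 0.0804 and 0.0962). Median centring (limma, adjusted p = 0.0501) and a block for chip lot ended it as well. A second Cat probe set gave 0.46 and did not pass. Of 9 genes of the list Cat alone was called, and the median was 0.25, but 0.059 without control array 1 and 0.14 without diabetic array 1. Pxmp2, a channel protein of the peroxisomal membrane, was lower in each diabetic array than in each control (-0.59, adjusted p = 0.0599), and Bdh1, which interconverts the 2 ketone bodies, gave -1.38 (adjusted p = 0.0593). Neither passed.

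In glucose use 2 genes fell on their representative probe sets. Slc2a4, the insulin-responsive glucose transporter GLUT4, read 7221, 7706, 6006 and 6972 in controls and 4042, 3280, 2898 and 4515 in diabetic arrays. The groups did not overlap, and the fall was 0.94 ± 0.18 on the log2 scale (limma, adjusted p = 0.00738), while a second probe set gave -0.47 and did not pass. With scan day or fluidics station as a block the change was -0.82 and -0.79 and did not pass (limma, adjusted p = 0.0802 and 0.109). Hexokinase 2, Hk2, which traps glucose in the cell, was read by 2 probe sets that differed. One, marked by the maker as shared between similar sequences, fell from 1577, 1831, 1216 and 1408 to 152, 398, 669 and 663 (-1.88 ± 0.42, limma adjusted p = 0.0257, and -1.41 without diabetic array 1, adjusted p = 0.0779). The other one gave -0.45 and did not pass. The basal transporter gene Slc2a1 read 1407, 888, 1413 and 1031 against 575, 803, 360 and 1362 and did not pass (-0.75, adjusted p = 0.328), with diabetic array 4 among the controls. Slc2a4 was thus the 1 called gene of 6 in the list of glucose uptake and phosphorylation, whose median was -0.32 with 1 member above 0. The median was -0.49 without diabetic array 1 and -0.16 without diabetic array 3.

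Downstream, Eno3, the muscle enolase, fell by 1.32 ± 0.32 (limma, adjusted p = 0.0413). Its signals were 3422, 3821, 3263 and 2443 in controls and 747, 1036, 1193 and 2874 in diabetic arrays. Diabetic array 4 lay above control array 4, and the change was -1.07 without diabetic array 1 (adjusted p = 0.108) and -1.71 without diabetic array 4. Pfkfb2, the cardiac enzyme that makes the activator of phosphofructokinase, read 222 to 257 in diabetic arrays 1 to 3 and 615 in diabetic array 4 against 504 to 734 in controls, and did not pass (-0.99, adjusted p = 0.202). Of 14 measured glycolysis genes Eno3 alone was called, the median was -0.23, and 4 were above 0.

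At pyruvate dehydrogenase the transcripts of the kinase Pdk4 and the phosphatase Pdp2 changed in opposite directions, each on 1 called probe set. Pdk4, which phosphorylates and shuts off the complex, read 9025, 6696, 5910 and 10897 in controls and 22848, 20051, 15718 and 20709 in diabetic arrays. The groups did not overlap, but the spread within controls was wide and the rise of 1.31 ± 0.32 (limma, adjusted p = 0.0443) lost its call in 7 of the 8 omissions, with 1.24 without diabetic array 1 (adjusted p = 0.089). Pdp2, the phosphatase that reverses this, fell by 1.34 ± 0.23 on 1 probe set (limma, adjusted p = 0.00193), from 555, 889, 675 and 707 to 279, 210, 281 and 352, and was kept in each omission. The brighter Pdp2 probe set was lower in each diabetic array than in each control without passing (-0.64, adjusted p = 0.0515). The core subunit gene Dlat (-0.31) and the pyruvate carrier gene Mpc1 (-0.34) were also separated between the groups without passing. In the list of 10 genes Pdk4 alone was called and 2 were above 0.

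The promoters of Acot1, Pdk4 and Ucp3, which rose, and of Cdk1, which had the largest fall of the called genes, are shown so that the sequence upstream of these transcripts can be read beside their changes. The table of RefSeq promoters (build GRCr8) held 4 of 7 genes sought, and gave the 250 bases upstream of the start. Acot1 lies at chr6:109367024-109367273 on the plus strand, Pdk4 at chr4:34568330-34568579 on the minus strand, Ucp3 at chr1:164227660-164227909 and Cdk1 at chr20:19265043-19265292, both on the plus strand. Capitals mark every match to the motifs searched on both strands, which were a PPAR-type repeat (AGGTCANAGGTCA, up to 2 mismatches), a glucocorticoid element (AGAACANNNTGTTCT, up to 2 mismatches), TGACGTCA (1 mismatch), TGACNNNGC, the CCAAT box, the cell cycle motif TTTGAA and the E-box with the letters CACGTG. No match overlapped another.
Acot1: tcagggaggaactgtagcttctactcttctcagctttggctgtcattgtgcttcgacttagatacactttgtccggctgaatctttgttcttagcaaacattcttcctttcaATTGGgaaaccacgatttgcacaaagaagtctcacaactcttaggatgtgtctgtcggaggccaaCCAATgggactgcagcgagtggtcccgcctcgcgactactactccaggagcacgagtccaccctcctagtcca
Pdk4: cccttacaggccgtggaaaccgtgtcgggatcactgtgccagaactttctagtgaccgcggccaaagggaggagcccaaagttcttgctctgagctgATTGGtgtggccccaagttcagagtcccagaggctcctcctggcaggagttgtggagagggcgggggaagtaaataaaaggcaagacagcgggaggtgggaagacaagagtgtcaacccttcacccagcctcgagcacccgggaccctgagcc
Ucp3: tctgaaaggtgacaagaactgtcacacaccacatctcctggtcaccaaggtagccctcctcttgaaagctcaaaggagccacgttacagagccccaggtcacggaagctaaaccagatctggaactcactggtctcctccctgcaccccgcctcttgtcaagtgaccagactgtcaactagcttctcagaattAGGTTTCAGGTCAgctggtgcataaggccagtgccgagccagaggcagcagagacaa
Cdk1: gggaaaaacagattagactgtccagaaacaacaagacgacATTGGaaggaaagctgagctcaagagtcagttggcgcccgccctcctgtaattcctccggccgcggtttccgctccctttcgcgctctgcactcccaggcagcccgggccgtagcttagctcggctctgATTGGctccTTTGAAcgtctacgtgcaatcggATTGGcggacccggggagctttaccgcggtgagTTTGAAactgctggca
Ucp3 held the only PPAR-type match of these 4 promoters, 57 to 45 bases upstream of its start with 2 mismatches, a motif found in 3.15% of 33469 promoters. CCAAT stood 3 times in Cdk1 on the minus strand, 2 times in Acot1 and once in Pdk4, against 34.02% of promoters with at least 1 copy. TTTGAA, the core of an element of cell cycle genes, stood 2 times in Cdk1, against 16.2% of promoters with at least 1. The glucocorticoid element (1.58% of promoters), TGACGTCA (11.97%), TGACNNNGC (10.08%) and CACGTG (5.59%) had no match in these windows. A match is a description of the letters and not a measured binding site.

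Of 52 measured subunits of oxidative phosphorylation none was called, 5 were above 0, and the median was -0.17. In 8 of them each diabetic array lay below each control array, against 3.85% of all genes lower and 2.93% higher without overlap. The complex I subunit gene Ndufa6 came nearest to the threshold, with 15514, 18203, 15796 and 15840 in controls and 9473, 11181, 12336 and 13156 in diabetic arrays (-0.51, adjusted p = 0.068). The citrate synthase gene Cs read 8120, 8003, 9508 and 9316 against 5340, 6958, 5790 and 7783 without overlap and did not pass (-0.45, adjusted p = 0.239). Of the ribosomal protein genes 34 of 40 were above 0, with a median of 0.12 and no call. The oxidative phosphorylation median ran from -0.20 to -0.12 over the omissions of 1 array. The ribosomal median ran from 0.044, without diabetic array 3, to 0.18, and from -0.05 to 0.12 in the fits within 1 batch, so that its direction was not kept.

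In the breakdown of branched-chain amino acids, Pcca, a subunit of propionyl-CoA carboxylase, fell by 0.58 ± 0.14 (limma, adjusted p = 0.0443), from 4590, 4109, 4509 and 4429 to 2316, 2971, 2996 and 3670. The groups did not overlap and diabetic array 1 was lowest, without which the change was -0.46 (adjusted p = 0.108). The partner subunit gene Pccb (-0.50) and Acadsb (-0.78), the short branched-chain acyl-CoA dehydrogenase gene, were separated between groups without passing. Of 10 genes in the list 1 was above 0 and the median was -0.40. Higd1a, a small protein of the mitochondrial inner membrane induced by low oxygen, fell by 0.69 ± 0.13 (limma, adjusted p = 0.00595), from 7263, 7477, 8804 and 8657 to 4416, 4537, 5043 and 6013. The call was kept in each omission but not with fluidics station as a block (limma, adjusted p = 0.0561) or median centring (0.0598). A second Higd1a probe set gave -0.35 and did not pass.

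In cell division 2 genes fell. Cdk1, the kinase that drives entry into mitosis, read 423, 833, 394 and 492 in controls and 87.7, 106, 179 and 169 in diabetic arrays. The highest diabetic array lay far below the lowest control, and the fall was 1.98 ± 0.45 on the log2 scale (limma, adjusted p = 0.0277), with -1.79 without diabetic array 1 (adjusted p = 0.0764). Racgap1, which acts at the cleavage furrow in cytokinesis, fell by 1.11 ± 0.25 (limma, adjusted p = 0.0257), from 590, 1013, 504 and 708 to 383, 240, 269 and 393. Of 17 measured genes of the list 2 fell, 1 was above 0, and the median was -0.45. Top2a, the topoisomerase of replicating cells (-1.07), Cdc20, an activator of the anaphase-promoting complex (-0.86), and cyclin B1, Ccnb1 (-0.50), did not pass. Control array 2 had the highest signal of the controls for Cdk1, Racgap1 and Top2a, and its omission ended the calls of Cdk1 and Racgap1. Ccng1, cyclin G1, a target of p53, fell by 0.53 ± 0.11 (limma, adjusted p = 0.0213), from 29220, 28656, 28959 and 23465 to 19686, 18417, 15978 and 22532. Igfbp5, which binds insulin-like growth factors, was lower in each diabetic array (173 to 506) than in each control (793 to 1086) and did not pass (-1.71, adjusted p = 0.149).

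Among signalling genes, Penk, which encodes proenkephalin, the source of enkephalins, read 3061, 1211, 1837 and 1331 in controls and 9032, 13805, 10723 and 3232 in diabetic arrays. Diabetic array 4 was close to control array 1 while the other 3 diabetic arrays were far above, and the rise was 2.22 ± 0.36 (limma, adjusted p = 0.00182) with no omission ending the call. Among 6 measured opioid and neuropeptide genes no other was called, and the dynorphin precursor gene Pdyn gave -0.08. Pik3c2g, a class II phosphoinositide 3-kinase, rose by 1.88 ± 0.28 (limma, adjusted p = 0.000864), from 398, 543, 1006 and 612 to 1763, 2371, 4131 and 1424. Array 3 was the highest in each group. Pik3c2g was the 1 called gene of 13 in the insulin signalling chain, where Akt1 (-0.32), Mtor (-0.37) and the receptor-binding adaptor gene Grb14 (-0.43) did not pass. Igfbp6, another binding protein of the growth factors, rose by 0.73 ± 0.16 (limma, adjusted p = 0.0213), with 882, 794, 1020 and 837 in controls and 1405, 1608, 1420 and 1397 in diabetic arrays. Inha, the inhibin alpha subunit, fell on 2 probe sets, by 0.77 ± 0.19 and by 1.06 ± 0.23. Without diabetic array 1 they gave -0.83 and -0.998 and did not pass (limma, adjusted p = 0.0544 and 0.0565).

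Of 10 genes that respond to glucocorticoids Pdk4 alone was called, while 7 were above 0 and the median was 0.44, but 0.29 without control array 3 and 0.27 without diabetic array 4. Cebpb, a transcription factor of acute responses, read 3923, 1505, 1516 and 3299 in controls and 3955, 3342, 4304 and 6177 in diabetic arrays and did not pass (0.89, adjusted p = 0.147). Among circadian genes, Per2 read 425, 359, 298 and 1106 in controls and 692, 1057, 735 and 2193 in diabetic arrays (1.14, adjusted p = 0.102), with array 4 the highest in each group. No clock gene of the 9 measured was called, and the time of collection was not given in the labels.

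Some enzymes of detoxification and of lipid mediators rose. Sult1a1, a phenol sulfotransferase, read 3507, 1644, 2197 and 3600 in controls and 6385, 5570, 5149 and 6963 in diabetic arrays, a rise of 1.20 ± 0.20 (limma, adjusted p = 0.00172), and its other probe set gave 1.43 ± 0.23. Ephx1, the microsomal epoxide hydrolase, read 514, 428, 424 and 377 against 953, 990, 1134 and 778, a rise of 1.14 ± 0.20 (limma, adjusted p = 0.00362). Neither overlapped between groups, and no omission ended either call. With Cat they made 3 of 36 genes of the list called higher and none lower, at a list median of 0.07 that ran from 0.03 to 0.12 over the omissions of 1 array. Alox15, the 12/15-lipoxygenase, rose by 1.09 ± 0.21 (limma, adjusted p = 0.00727), from 994, 991, 1019 and 1227 to 1950, 1864, 3024 and 2322. The call was lost without diabetic array 3 and with scan day or fluidics station as a block (limma, adjusted p = 0.075 and 0.0604). A second Alox15 probe set gave 1.21 and did not pass. Pla2g2a, a secreted phospholipase A2, rose by 1.05 ± 0.22 (limma, adjusted p = 0.0205), from 1870, 2387, 2725 and 2192 to 4851, 3942, 7775 and 3295. They were 2 of 14 genes in the list of lipid mediator enzymes. Txnip, an inhibitor of thioredoxin that is induced by glucose in many cells, rose on 1 probe set by 0.75 ± 0.17 (limma, adjusted p = 0.0277), from 11065, 7784, 7019 and 9950 to 15906, 14999, 15221 and 13417, and its brighter probe set was separated without passing (0.58, adjusted p = 0.069). Without diabetic array 1 the first was 0.72 and did not pass (limma, adjusted p = 0.0706). Maoa, the monoamine oxidase that breaks down catecholamines and serotonin, rose by 0.96 ± 0.21 (limma, adjusted p = 0.0213), with diabetic array 4 (7144) below control array 3 (8001), and was 0.88 without diabetic array 1 (adjusted p = 0.0675). A second Maoa probe set gave 0.78 and did not pass.

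In the contractile apparatus 1 of 20 genes was called on its representative probe set. Tcap, the telethonin that caps titin at the Z-disc, read 8908, 9959, 10263 and 8257 in controls and 12066, 19734, 20364 and 14882 in diabetic arrays, a rise of 0.82 ± 0.16 (limma, adjusted p = 0.00738). The Tcap call was lost without diabetic array 2 or 3. It was also lost with scan day or fluidics station as a block (limma, adjusted p = 0.075 and 0.0601). Myh7, the beta or fetal myosin heavy chain, gave different answers on its 2 probe sets. The probe set X15939_i_at read 12888, 3771, 6122 and 3565 in controls and 40704, 48794, 53061 and 27317 in diabetic arrays, a rise of 2.85 ± 0.32 (limma, adjusted p = 1.98e-05) with no overlap and no omission that ended it. The brighter probe set X15939_f_at gave 0.05 and did not pass. Its suffix marks possible sharing with similar sequences, while that of X15939_i_at marks another limit of the probe design. The alpha chain gene Myh6, also on a shared probe set, gave -0.10. Skeletal alpha actin, Acta1, was lower in each diabetic array (10610 to 19435) than in each control (23702 to 34260) and did not pass (-0.93, adjusted p = 0.39). Casq1, the calsequestrin that skeletal muscle uses to store calcium, fell by 1.11 ± 0.26 (limma, adjusted p = 0.04), from 3977, 3901, 3577 and 4301 to 1853, 1508, 2084 and 1886. The groups were compact and well apart, yet each of the 8 omissions ended the call (adjusted p from 0.0581 to 0.139), with -1.12 without diabetic array 1 (adjusted p = 0.0717). The other 20 of 21 calcium cycling genes did not pass, among them the calcium pump gene Atp2a2 (-0.01). The natriuretic peptide genes gave 1.27 for Nppa, which also marks atrial tissue, and -0.16 for Nppb, with no call. Of 26 collagen and matrix genes none was called, the median was -0.13 and 6 were above 0.

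Markers of other cells moved with part of these results. Aqp7, the glycerol channel of fat cells, rose by 0.81 ± 0.17 (limma, adjusted p = 0.0126), from 5937, 4882, 6536 and 5830 to 11210, 11083, 12278 and 6897, and Lipe, the hormone-sensitive lipase, rose by 0.77 ± 0.19 and 0.86 ± 0.20 on 2 probe sets. Without diabetic array 1 the Lipe probe sets gave 0.72 and 0.78 and did not pass (limma, adjusted p = 0.0922 and 0.0839). The Aqp7 call was lost without control array 2, diabetic array 2 or diabetic array 3. Aqp7 and Lipe are also expressed in heart muscle. Of 8 measured adipocyte markers they were the 2 that rose, 5 were above 0 and 3 below, the median was 0.74, and the summed signal ran from 41648 to 58844 in controls and from 58176 to 66638 in diabetic arrays. The fatty acid binding protein gene Fabp4 (0.92, adjusted p = 0.053) and Pparg (0.72, adjusted p = 0.275) were higher in each diabetic array without passing, and Cfd gave 1.38. Those below 0 were Lep (-0.09), Lpl (-0.10) and Car3 (-0.30). Their part in the rises of Aqp7 and Lipe was not tested. Atrial markers summed to between 3850 and 34680 in controls and between 13635 and 64931 in diabetic arrays, with overlap, and diabetic array 3 was highest. No marker of endothelium, fibroblasts, smooth muscle, macrophages, lymphocytes, mast cells, red cells or nerve passed. The lists of mast cells, red cells and nerve held 3 measured genes each and that of B lymphocytes 1. The 5 macrophage markers were all above 0, with a median of 0.29, but -0.02 with fluidics station as a block. Their summed signal ran from 6601 to 7624.5 in controls and from 8150 to 10705 in diabetic arrays, without overlap. The 4 smooth muscle markers were also above 0, with sums that overlapped. The source of these shifts was not tested. Of 4 skeletal muscle markers Casq1 alone passed, and Tnnt3 (-0.17), Myh1 (-0.22) and Myl11 (0.05) did not.

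**Figure D3:**
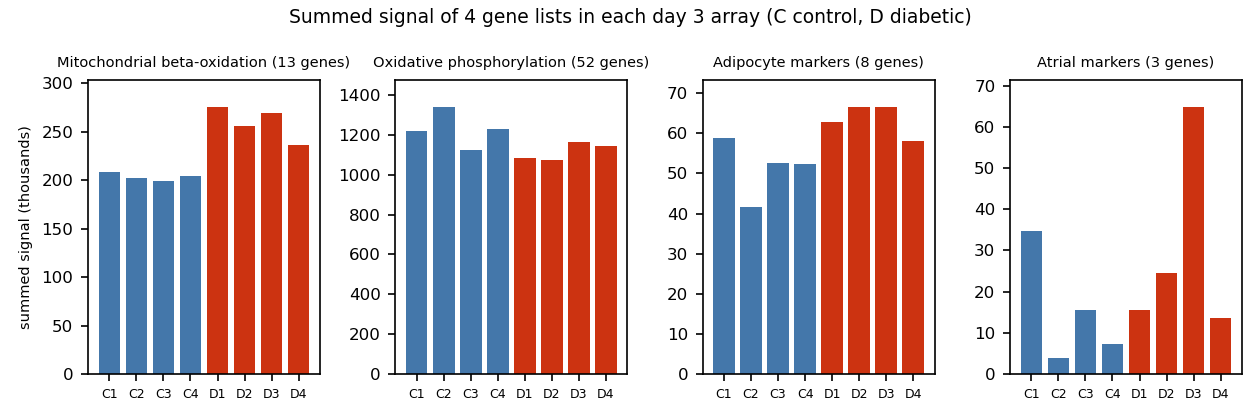
Summed signal (intensity units, scaled as on the axis, bars from 0) of the measured genes of 4 lists in each of the 8 day 3 arrays, blue for control and red for diabetic. The beta-oxidation sum is higher in each diabetic array, but it includes the called Decr1, Ech1 and Eci1, and 4 of its 13 genes had a log2 change below 0. Oxidative phosphorylation overlaps at control array 3, adipocyte markers overlap at control array 1, and atrial markers vary from array to array in both groups.

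The remaining called genes belonged to no single list that moved. Cntnap1, a contact protein of myelinated axons, fell by 0.97 ± 0.18 (limma, adjusted p = 0.00712), from 1557, 2079, 1615 and 2198 to 657, 1145, 1089 and 961, while no marker of nerve passed. Ubqln1, a shuttle that brings ubiquitin-tagged proteins to the proteasome, fell by 0.64 ± 0.12 (limma, adjusted p = 0.00738), from 3130, 2939, 3021 and 3161 to 1782, 1804, 2084 and 2221, as the 1 called gene of 24 in the list of protein degradation. Neither overlapped between groups, but the Ubqln1 call was lost without diabetic array 2 and with fluidics station as a block (limma, adjusted p = 0.1126). Ivns1abp rose by 1.3 ± 0.29 (limma, adjusted p = 0.0251), from 1782, 837, 1394 and 1698 to 2429, 3844, 2948 and 4658. On 1 probe set each, the cytosolic creatine kinase gene Ckb fell by 1.36 ± 0.31, the small heat shock protein gene Hspb6 fell by 0.42 ± 0.10, and Cst3, the protease inhibitor cystatin C, rose by 0.61 ± 0.14. The brighter probe sets of these 3 genes gave -0.86, -0.40 and 0.50 and did not pass. Without diabetic array 1 the called Ckb probe set was -1.22 and did not pass (limma, adjusted p = 0.081).

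Of the called probe sets 5 had no single gene symbol in the annotation used and are given by identifier. M33648_g_at read 1349, 960, 976 and 1165 in controls and 5556, 9129, 7933 and 3716 in diabetic arrays, a rise of 2.5 ± 0.22 with the smallest adjusted p of the comparison (limma, adjusted p = 1.67e-07). Its companion M33648_at rose by 2.22 ± 0.53, rc_AA860010_at by 1.81 ± 0.29, rc_AI171090_at by 0.82 ± 0.17 and AF072411_at by 0.59 ± 0.14. Without diabetic array 1, M33648_at was 2.25 and AF072411_at was 0.52, and neither passed (limma, adjusted p = 0.0737 and 0.0839). Where a called gene had further probe sets, 15 of them did not pass, of which 14 had the sign of the called one and 1, of Eci1, had the opposite sign. Of the 49 called probe sets 17 carry a suffix by which the maker marks a limit of the probe design, among them those of Acot1, Penk, Slc2a4 and Cdk1. Except for X15939_i_at of Myh7, the limit is possible sharing with similar sequences or with a companion probe set.

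Most of the early calls were met again later. Of the 33 probe sets higher at day 3 all 33 were above 0 at day 28, where 21 passed, and 30 were above 0 at day 42, where 27 passed. The background of calls was 1.3% higher and 0.801% lower at day 28, and 5.8% and 5.63% at day 42. Of the 16 lower probe sets all were below 0 on both days, with 8 called at day 28 and 12 at day 42. The animals of each day had their own controls, so these groups share no samples, but the model shares its estimate of spread. The median of the 33 rises was 1.03 at day 3, 0.84 at day 28 and 1.08 at day 42.

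**Figure D4:**
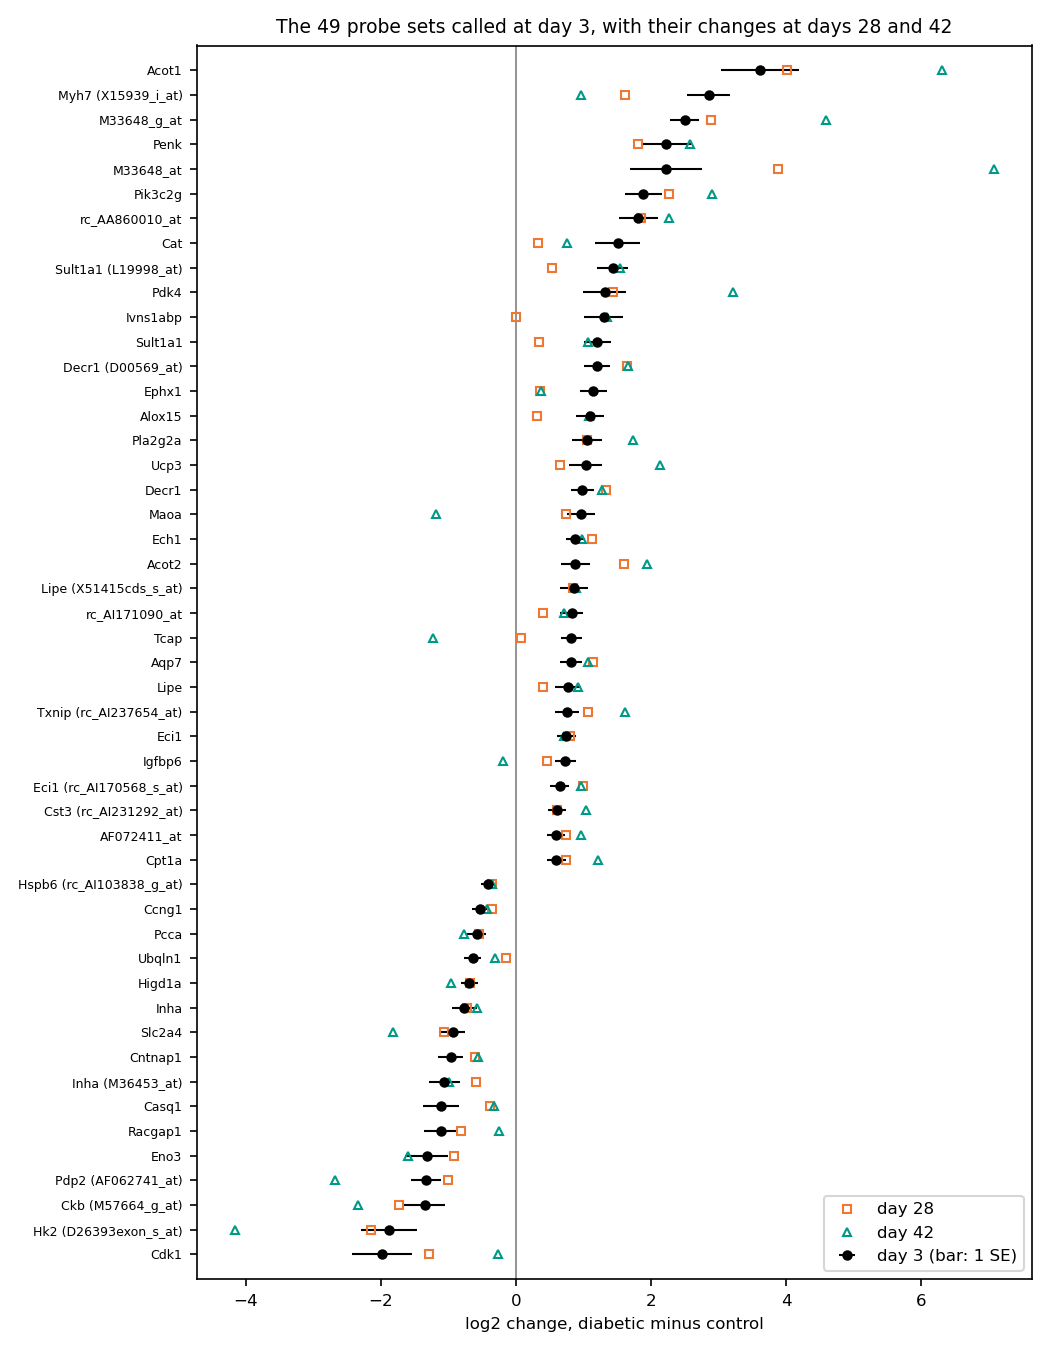
Log2 change (diabetic minus control) of the 49 probe sets called at day 3, with black points and bars of 1 SE for day 3, orange squares for day 28 and green triangles for day 42. Maoa, Tcap and Igfbp6 are the probe sets called higher at day 3 that lie below 0 at day 42.

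The difference of the diabetic effect between days was tested directly. Between days 28 and 3 no probe set passed (limma, 243 at an unadjusted p under 0.05, smallest adjusted p 0.0923, for G0s2, an inhibitor of fat breakdown with -0.54 at day 3 and 1.45 at day 28). Between days 42 and 3, 98 of 5244 passed (1.87%), 30 with a higher and 68 with a lower value at day 42. Of the day 3 calls, 7 of the rises and 2 of the falls were among them.

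Tcap and Maoa turned round. Tcap was 0.82 at day 3, 0.07 at day 28 and -1.22 at day 42, a difference of -2.04 ± 0.22 between days 42 and 3 (limma, adjusted p = 4.92e-06). Its control mean was 9346 ± 930 (SD, n = 4) at day 3, 20901 at day 28 and 19386 at day 42, while the diabetic mean was 16762 ± 3974, 22396 and 8332. Maoa was 0.96, 0.74 and -1.18 (difference -2.14 ± 0.29, limma adjusted p = 0.000116), with control means of 5959, 11009 and 16049. Igfbp6 was 0.73 at day 3 and -0.19 at day 42 (difference -0.92 ± 0.22, limma adjusted p = 0.0291). The Myh7 probe set X15939_i_at shrank from 2.85 to 0.96 (difference -1.89 ± 0.45, limma adjusted p = 0.0283), with control means of 6586, 16157 and 25115 and diabetic means of 42469, 50837 and 48977. The control mean was higher on each later day, while the diabetic mean was of similar size on all 3 days. Arrays of different days were scanned on different days, so levels across days and scan day cannot be told apart. The differences above compare changes measured within a day.

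**Figure D5:**
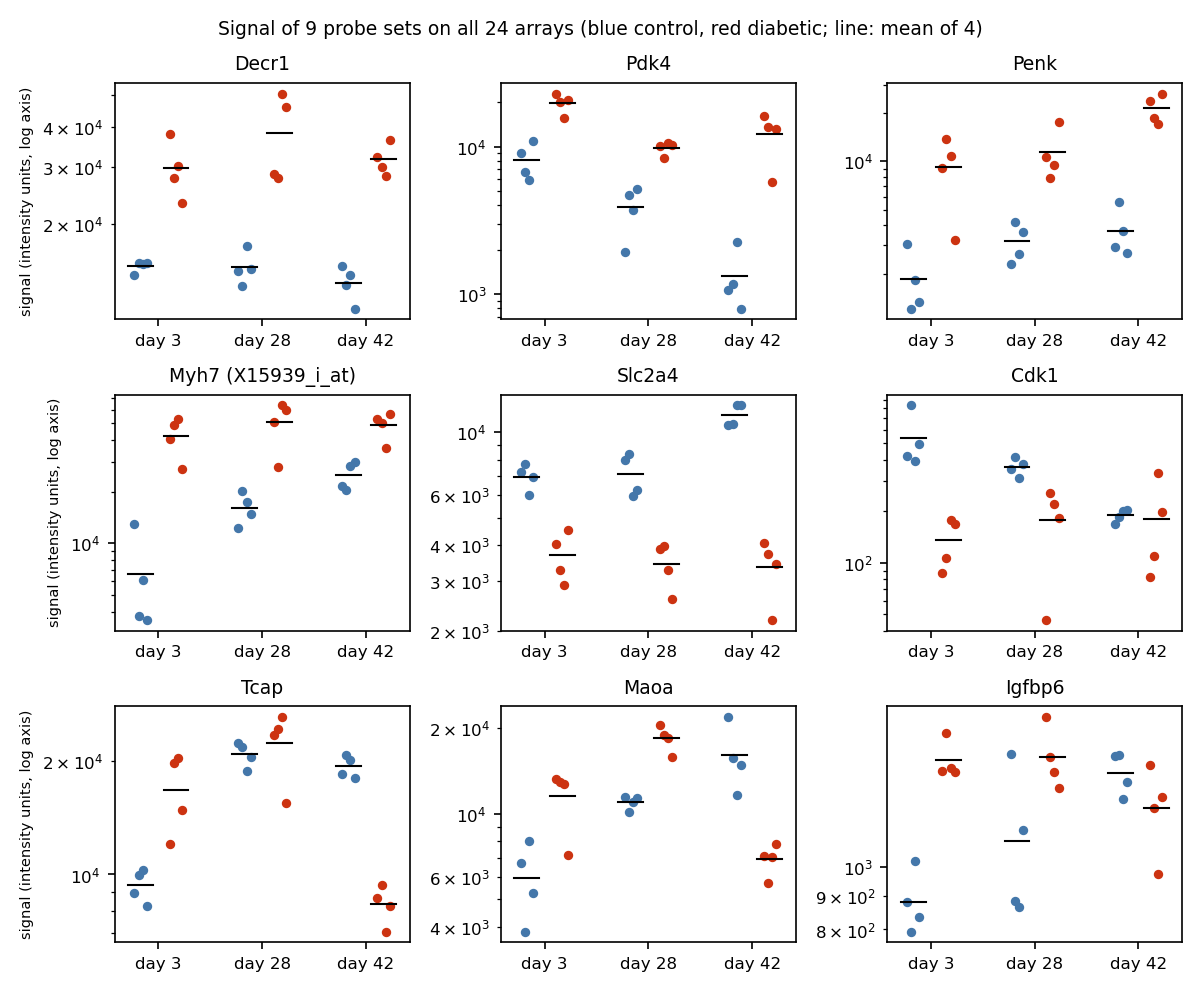
Signal (intensity units, log axis) of 9 probe sets on all 24 arrays, blue for control and red for diabetic, with a line at the mean of 4 arrays. Decr1, Penk and Slc2a4 keep their separation on all 3 days, and Tcap and Maoa cross between days 28 and 42. The Cdk1 groups overlap at day 42, where controls read lower than at day 3, but its difference between days did not pass. Levels across days and scan day cannot be told apart.

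Pdk4 was 1.31 at day 3 and 3.21 at day 42 (difference 1.89 ± 0.45, limma adjusted p = 0.0263), with diabetic means of 19832 and 12134 and control means of 8132 and 1323, so that the larger ratio at day 42 went with a lower control level. The Pdp2 probe set went from -1.34 to -2.69 and the shared Hk2 probe set from -1.88 to -4.16. For Cdk1 the change was -1.98 at day 3, -1.29 at day 28 and -0.27 at day 42, with control means of 536, 365 and 189 and diabetic means of 135, 177 and 181, and the difference between days 42 and 3 did not pass (1.71 ± 0.63, limma adjusted p = 0.254). Slc2a4 (difference -0.88, adjusted p = 0.0887) and Acot1 (2.70, adjusted p = 0.111) did not pass either.

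Some of the largest late effects were without a call at day 3. The heat shock gene Hspa1a was 0.19 at day 3 and -3.98 at day 42, and the clock output gene Dbp was 0.87 and -2.94, with control means of 773 and 4741. The class II antigen presentation gene RT1-Da was 0.07 and -2.99, and its chaperone gene Cd74 was -0.57 and -2.45. The collagen gene Col3a1 was -0.47 and -2.85. Igfbp3 was -0.02 and 1.90, the imprinted transcript H19 was -0.32 and 1.32, and the platelet-type phosphofructokinase gene Pfkp was 0.05 and 1.53. For each of these 8 genes the difference between days passed (limma, adjusted p from 2.31e-06 to 0.0142).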

How the data were processed

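Signals of 24 ventricle arrays were used, 8 of them of day 3. The intensity values are MAS5 signals as deposited, made with MAS5 per the submitters' processing notes. The trimmed mean of each array, leaving out the 2% of probe sets at each end, was 1499.94 to 1499.95, as read from the values. Of 8799 probe sets 59 controls were left out, and of the remaining 8740 the 2016 platform annotation gave 1 symbol to 7006, several to 308 and none to 1426. Signals below 30.5, the 10th percentile over all arrays, were raised to that floor and log2 transformed, and probe sets under the 40th percentile of mean log2 signal were left out, which kept 5244. A gene was represented by its brightest kept probe set.

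A limma model (version 3.58.1, R 4.3.3) with the 6 group means, moderated with a trend and robust prior, had 18 residual degrees of freedom. The Benjamini-Hochberg adjusted p threshold was 0.05. The median standard error of a day 3 change was 0.21 on the log2 scale, and precision is limited by having 4 arrays a group. The labels give 1 animal per array. Samples with equal replicate numbers were checked for pairing, and the correlations of their deviations from the group means were -0.077, -0.089, -0.076 and 0.27, so they were not treated as pairs. The comparison and the gene lists were chosen with earlier results of these data known. Genes were named by a rule that took the called genes, members of the lists and genes with the largest differences between days, and further probe sets of those genes. Alternatives covered the floor, filter, normalization, moderation, samples fitted, batch blocks and omission of each array. Promoter sequences came from the RefSeq table of build GRCr8, and Decr1, Slc2a4 and Penk were not matched there. The model was tested on simulated data.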

Additional observations from a re-analysis of the deposited data

Results flagged for a closer look

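In 15 of 228 groups of 4 values checked, the highest or lowest array lay farther from the other 3 than Dixon's 95% limit of 0.829 of the range allows, which chance does in about 1 group in 20. Among controls, array 1 was highest for Cd36 (10390, others 7577 to 7665) and for the probe set AF072411_at (18842), and lowest for Decr1 (13989) and for the Inha probe set M36453_at (1967). Control array 2 was highest for Ndufa6 (18203) and control array 3 for Hadhb (25552). Control array 4 was highest for Alox15 (1227) and lowest for Ccng1 (23465) and the Hspb6 probe set rc_AI103838_g_at (18933), and control animal 4 had the heaviest ventricle (0.53 g against 0.5 g in the other 3).

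Among diabetic arrays, array 1 had the lowest median correlation with its group (0.943). Diabetic array 2 was highest for Igfbp6 (1608) and diabetic array 3 lowest for Dlat (10965, others 16090 to 16458). Diabetic array 4 was lowest for Maoa (7144, others 12702 to 13314) and highest for Pfkfb2 (615, others 222 to 257), in both cases on the side of the controls.

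For 20 reported probe sets the diabetic effect differed between days 42 and 3 in the limma fit at an adjusted p under 0.05, given here as the log2 effect at day 42 minus that at day 3. The difference was positive for M33648_at (4.86), M33648_g_at (2.08), Igfbp3 (1.92), Pdk4 (1.89), H19 (1.64) and Pfkp (1.49). It was negative for Hspa1a (-4.16), Dbp (-3.80), RT1-Da (-3.05), Col3a1 (-2.38), the Hk2 probe set D26393exon_s_at (-2.28), Maoa (-2.14), Per2 (-2.04), Tcap (-2.04), the Myh7 probe set X15939_i_at (-1.89), Cd74 (-1.88), Igfbp6 (-0.92) and Pxmp2 (-0.85). Pdp2 gave -1.35 on AF062741_at and -0.87 on its brighter probe set. Day of harvest and scan day cannot be told apart across days, and each effect was measured within its day.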

How the results depend on the processing

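The count of 49 calls at day 3 was 24 with median centring, 32 with plain eBayes, 20 and 23 with a block for scan day or fluidics station, 20 at an adjusted p of 0.01 and 82 at 0.10. Higher calls were 67.3% of all calls, 79.2% with median centring and 82.6% with the station block. Within 1 batch the counts were 3 (scan day 4) and, in fits chosen after seeing the data, 4 (scan day 5), 5 (station 2), 31 (lot 4) and 2 (lot 5), most with a lone array in 1 group whose spread was assumed to be that of the other groups. Omitting 1 array gave 17 to 62. With the replicate number as a block 43 passed, 32 higher and 11 lower. The count for day 28 minus day 3 was 0, and 1 with 1 probe set per gene and with the scan day block, and 0 to 1 over omissions. The count for day 42 minus day 3 was 98, 56 with 1 probe set per gene, and 62 to 104 over omissions. Calls also called at day 28 were counted among the day 3 calls of the same fit, whose number changed too. They were 29 of 49, but 15 of 24 (median centring), 17 of 32 (plain eBayes), 12 of 20 (scan day) and 10 of 23 (station). They numbered 18 (only the groups compared, and 1 probe set per gene) and 19 (chip lot), with 12 to 38 over omissions. At day 42 they were 39 of 49, but 18 of 24, 22 of 32, 15 of 20 and 19 of 23 for centring, plain eBayes, scan day and station. Over omissions they numbered 15 to 47. Listed genes called numbered 26, but 12, 17, 10, 10 and 14 for centring, plain eBayes, scan day, station and lot, 1 within scan day 4, scan day 5 and station 2, 9 within lot 4 and 0 within lot 5, with 8 to 28 over omissions. The cause of these changes was not tested.

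The differences in body weight, ventricle weight, glucose and ventricle to body weight ran over omissions from -27.7 to -19.3 g, -0.111 to -0.0908 g, 387 to 427 mg/dL and -0.337 to -0.141 mg/g. Without control animal 1 the first 3 had an adjusted exact permutation p of 0.0381. Signals at or under the floor limit what can be said of Acot1 in controls.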
